A study of Mus musculus with 6 samples.

Results

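The BCL2 family of cell death regulators and a small set of p53 target genes were examined in a mouse model of venous thrombosis. The set holds 10 genes, Bcl2, Bcl2l1, Bcl2l11, Mcl1, Bax, Bbc3, Pmaip1, Apaf1, Cdkn1a and Mdm2, taken by gene symbol from a table of 17761 genes. Each symbol matched 1 row. All 10 genes were among the 13907 genes tested after a filter on low counts.

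Proteins of the BCL2 family decide whether the mitochondrial outer membrane is opened, the step that commits a cell to the intrinsic form of apoptosis. BCL2, BCL-XL and MCL1 keep the membrane closed, BAX and its relative BAK open it, and the BH3-only proteins BIM, PUMA and NOXA tip the balance towards opening. Cytochrome c that then leaks out binds APAF1, which assembles the apoptosome and activates caspase 9. The transcription factor p53 induces several of these genes, together with the cell cycle inhibitor Cdkn1a and with Mdm2, whose product marks p53 itself for degradation. Neutrophils depend on MCL1, platelets and late red cell precursors on BCL-XL, and mature lymphocytes on BCL2.

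In the study the inferior vena cava, which drains the lower body, was ligated, and the vein with its clot was harvested 24 h later. The labels give 3 Control and 3 Model samples, name the tissue of all 6 as thrombus, and give no strain, age, genotype or procedure for the Controls. The labels do not state that each sample was a different animal, so the p-values reflect the spread among the 6 samples only, and that spread may be technical. Libraries held 31924426 to 38118463 counts in Control and 25336173 to 28193281 in Model, so every Model library was shallower than every Control. The first principal component set Control 1 against the other 5 libraries, and liver transcripts were high in Model 2. The labelled tissue was checked against platelet genes: their summed level was 59.8 to 155 CPM (counts scaled by library size, with TMM factors) in the Controls and 450 to 1162 CPM in the Model libraries.

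Of the 10 genes, 3 were higher in Model and 0 were lower, by edgeR's quasi-likelihood test with an adjusted p under 0.05. Those were Bcl2l1, Apaf1 and Cdkn1a. Without Model 1 the count was 1, Bcl2l1. Over all tested genes, 4.07% were called, 2.71% higher and 1.36% lower. An unadjusted p under 0.05 was found for 4 of the 10 genes, against 15.8% of all genes. The groups did not overlap for 6 of the 10, 5 of them higher and 1 lower in Model, against 12.1% and 11.4% of all tested genes. The median log2 fold change was 0.86 for the 10 genes and -0.01 for all tested genes. In bulk tissue, fewer cells of a type and less RNA per cell cannot be told apart.

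**Figure D1:**
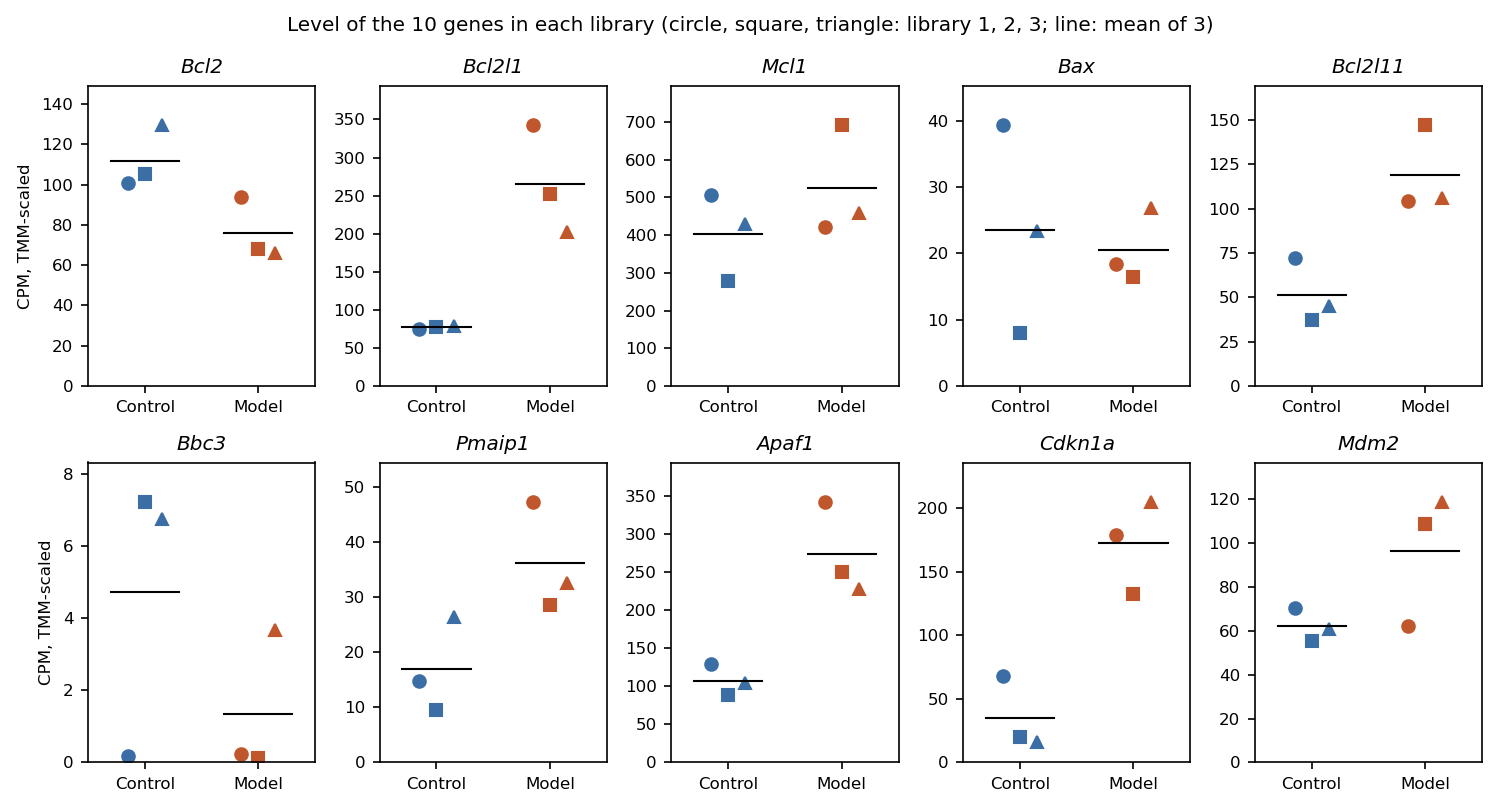
Levels of the 10 genes in CPM after TMM scaling, on linear axes that start at 0. Each point is 1 library and each line the mean of 3 libraries of a group. Bcl2l1, Apaf1 and Cdkn1a are higher in every Model library than in any Control library, while Bbc3 is near 0 in 1 Control and 2 Model libraries.

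Among the 3 genes that protect the mitochondrial membrane, Bcl2l1 rose and the other 2 did not pass the test. Bcl2l1, which encodes BCL-XL, stood at 74.5, 77.6 and 78.4 CPM in Control 1 to 3 and at 343, 252 and 203 CPM in Model 1 to 3. The lowest Model library was thus far above the highest Control, and the Controls were very close to each other. Their range was so narrow that 99.5% of tested genes had one as large. Bcl2l1 (ENSMUSG00000007659, chromosome 2, 152780668 to 152831728 of GRCm38, minus strand) had a log2 fold change of 1.79 (SE 0.26, 95% interval 1.23 to 2.35, adjusted p = 0.00183 by edgeR's quasi-likelihood test). It was the gene with rank 98 by p among all tested genes. Its call held under each of 14 alternative settings, with adjusted p from 6.87e-08 to 0.0296.

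Bcl2, the founding member of the family (ENSMUSG00000057329, chromosome 1, 106538178 to 106714274, minus strand), went the other way without passing the test. It was at 101, 105 and 130 CPM in Control 1 to 3 and at 94.0, 67.9 and 66.1 CPM in Model 1 to 3. All Model libraries were below all Controls, by a small margin for Model 1. Its log2 fold change was -0.56 (SE 0.28, 95% interval -1.17 to 0.05, adjusted p = 0.366 by edgeR). An antisense gene, D630008O14Rik, overlaps Bcl2 in GENCODE M21, and with no strand setting stated its reads may have been counted with those of Bcl2. Mir3473f and Gm37053 overlap Bcl2 on its own strand, so some reads of Bcl2 may also have been left out or shared.

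Mcl1, whose short-lived product protects neutrophils and many other cells (ENSMUSG00000038612, chromosome 3, 95658788 to 95663176, plus strand), had the highest level per exon length of the 10 genes. Its level was 505, 277 and 429 CPM in Control 1 to 3 and 422, 692 and 458 CPM in Model 1 to 3. The groups overlapped, with Control 1 above 2 of the Model libraries. Its log2 fold change was 0.38 (SE 0.29, 95% interval -0.25 to 1.001, adjusted p = 0.601 by edgeR).

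The BH3-only genes were uneven, and 0 of 3 passed the test. Bcl2l11, which encodes BIM, an activator of BAX (ENSMUSG00000027381, chromosome 2, 128126038 to 128162547, plus strand), was at 72.3, 37.2 and 44.8 CPM in Control 1 to 3 and at 104, 147 and 106 CPM in Model 1 to 3. No Model library fell within the Control range. The log2 fold change was 1.21 (SE 0.33, 95% interval 0.49 to 1.93), with an adjusted p of 0.0654 by edgeR, just over the threshold. It passed under 4 of 14 alternatives: without Control 1 (adjusted p = 0.0311), with no filter (0.0184), with DESeq2 (0.0184) and with limma-voom (0.0485). The adjusted p ranged from 0.0184 to 0.235 over all 14.

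Pmaip1, which encodes NOXA, a BH3-only protein that binds MCL1 (ENSMUSG00000024521, chromosome 18, 66458533 to 66465565, plus strand), was at 14.9, 9.49 and 26.5 CPM in Control 1 to 3. In Model 1 to 3 it was at 47.4, 28.6 and 32.7 CPM. The groups did not overlap, but the highest Control and the lowest Model library were close. Its log2 fold change was 1.10 (SE 0.55, 95% interval -0.10 to 2.29, adjusted p = 0.363 by edgeR).

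Bbc3, which encodes PUMA, a strong BH3-only inducer of apoptosis (ENSMUSG00000002083, chromosome 7, 16308393 to 16318205, plus strand), was the lowest and the most variable of the 10 genes. It had 6, 297 and 229 counts in Control 1 to 3 and 6, 3 and 93 counts in Model 1 to 3, or 0.170, 7.23 and 6.74 CPM against 0.242, 0.109 and 3.66 CPM. Control 1, Model 1 and Model 2 thus held next to no counts of Bbc3, while the other 3 libraries held a clear number. How reads were counted is not given in the sources used here, and its part in these low values was not tested. The highest Control library exceeded the lowest 42.6-fold, a range (on the log2 CPM scale) reached by 6.92% of tested genes. In Model the same ratio was 33.5-fold. The log2 fold change of -1.81 had an SE of 1.84 and a 95% interval from -5.81 to 2.19 (adjusted p = 0.721 by edgeR), and it was -4.71 without Model 3. At this spread no difference between the groups could be resolved. GENCODE M21 lists no gene that overlaps Bbc3.

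The pore-forming Bax did not differ in a resolvable way, and the apoptosome gene Apaf1 rose. Bax (ENSMUSG00000003873, chromosome 7, 45461697 to 45466898, minus strand) was at 39.3, 8.03 and 23.4 CPM in Control 1 to 3 and at 18.4, 16.4 and 26.9 CPM in Model 1 to 3. All Model libraries lay inside the Control range. The log2 fold change was -0.20 (SE 0.65, 95% interval -1.61 to 1.21, adjusted p = 0.937 by edgeR), and its sign was positive without Control 1 (0.37). The annotation lists a second gene on the same strand, Gm45808, that overlaps Bax, so some reads of Bax may have been left out or shared.

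Apaf1, the scaffold of the apoptosome, was at 130, 88.8 and 104 CPM in Control 1 to 3. In Model 1 to 3 it was at 342, 250 and 228 CPM. The lowest Model library was well above the highest Control. Apaf1 (ENSMUSG00000019979, chromosome 10, 90989311 to 91082770 of GRCm38, minus strand) had a log2 fold change of 1.35 (SE 0.26, 95% interval 0.78 to 1.91, adjusted p = 0.0115 by edgeR). Without Model 1, which held its highest level, the adjusted p was 0.0588 and the log2 fold change 1.14.

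**Figure D2:**
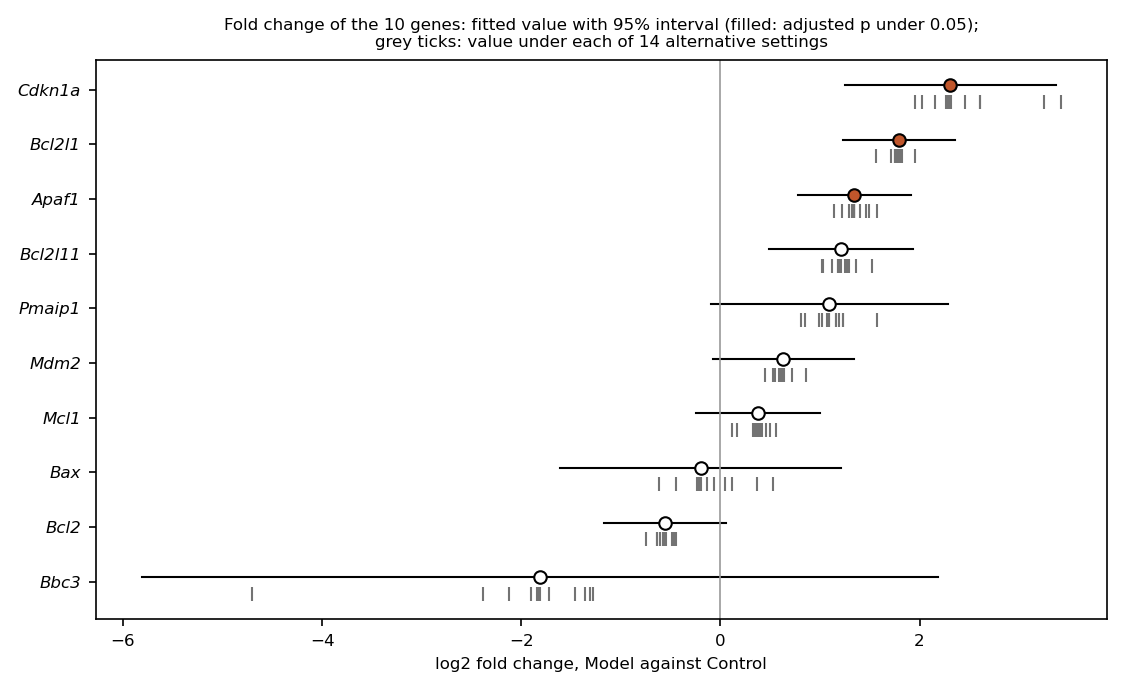
Log2 fold change of the 10 genes in Model against Control, with 95% intervals from edgeR's quasi-likelihood fit and filled points for an adjusted p under 0.05. Grey ticks give the value under each of 14 alternative settings: they lie on both sides of 0 for Bax and reach -4.71 for Bbc3.

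Of Cdkn1a and Mdm2, both p53 targets outside the BCL2 family, Cdkn1a rose and Mdm2 did not pass the test. Cdkn1a encodes p21, which stops the cell cycle by inhibiting cyclin-dependent kinases. It was at 68.4, 20.2 and 15.9 CPM in Control 1 to 3 and at 179, 132 and 205 CPM in Model 1 to 3. Control 1 was above the other Controls, yet below every Model library. Cdkn1a (ENSMUSG00000023067, chromosome 17, 29090976 to 29100727 of GRCm38, plus strand) had the largest rise of the 10 genes, with a log2 fold change of 2.31 (SE 0.49, 95% interval 1.25 to 3.37, adjusted p = 0.0195 by edgeR). Without Control 1 it was 3.25, and without Model 1 the adjusted p was 0.0772. A locus on the opposite strand, AC167363.2, overlaps Cdkn1a in the annotation.

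Mdm2, the ubiquitin ligase that both answers to p53 and removes it (ENSMUSG00000020184, chromosome 10, 117688875 to 117710758, minus strand), was at 70.5, 55.5 and 61.0 CPM in Control 1 to 3 and at 62.0, 109 and 119 CPM in Model 1 to 3. Model 1 lay within the Control range, while Model 2 and Model 3 lay above it. The log2 fold change was 0.63 (SE 0.33, 95% interval -0.08 to 1.34, adjusted p = 0.383 by edgeR). Whether Cdkn1a and Mdm2 differed from each other in their response was not tested.

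The promoters of the 10 genes were searched for the p53 consensus decamer, the 10-base unit of a p53 response element, which reads the same on both strands. The windows were the 250 bases before each RefSeq transcript start on GRCm38.p6, with 0 mismatches allowed. Windows were held for 9 of the 10 genes, 15 in all, and 3 of these genes, Cdkn1a, Mdm2 and Bax, had a match. Over all RefSeq genes with a window, 8.20% had at least 1 match, as did 7.13% of windows, and 0.259% of windows had at least 2. Of the 3 genes called higher, Cdkn1a had 2 matches, and Bcl2l1 and Apaf1 had none in these windows. The 3 sequences are shown because they are the ones among these genes that hold the letters, and capitals mark each match.
Cdkn1a (chr17:29090729-29090978, plus strand): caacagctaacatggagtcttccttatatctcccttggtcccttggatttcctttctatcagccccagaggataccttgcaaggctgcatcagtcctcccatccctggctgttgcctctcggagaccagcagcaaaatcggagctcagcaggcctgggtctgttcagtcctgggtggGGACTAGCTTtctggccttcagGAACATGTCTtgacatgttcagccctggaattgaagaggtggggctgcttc
Mdm2 (chr10:117710759-117711008, minus strand): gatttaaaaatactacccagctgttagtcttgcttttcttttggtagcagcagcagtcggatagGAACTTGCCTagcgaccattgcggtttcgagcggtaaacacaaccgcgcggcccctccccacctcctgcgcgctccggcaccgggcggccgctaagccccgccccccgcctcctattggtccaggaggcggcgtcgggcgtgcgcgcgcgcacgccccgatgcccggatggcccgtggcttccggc
Bax (chr7:45466899-45467148, minus strand): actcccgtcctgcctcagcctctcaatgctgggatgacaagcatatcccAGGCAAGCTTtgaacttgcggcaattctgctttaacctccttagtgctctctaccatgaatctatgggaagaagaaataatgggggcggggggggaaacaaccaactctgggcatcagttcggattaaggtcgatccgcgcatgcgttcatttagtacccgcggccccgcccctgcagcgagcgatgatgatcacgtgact

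Some genes had more than 1 start, and 3 of the 15 windows held a match. Each of those windows lay at the outer end of its gene as annotated in GENCODE M21. Counted from the start that follows the window, the Cdkn1a matches began at -73 and -51, the Mdm2 match at -186 and the Bax match at -201. Set beside the levels above, a match stood before 1 gene that was called and 2 that were not. A match describes the letters of a window and is not a measured binding site. It is 1 unit of a response element, and Mdm2 and Bax held a single unit each. Units with a mismatch and bases outside the windows were not searched, so a missing match does not show that a gene lacks a site.

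Levels were compared between genes as CPM per kb of exon, since longer transcripts give more reads. Mcl1 came first in both groups, with 118 ± 34.0 CPM per kb in Control and 153 ± 42.8 in Model (SD, n = 3 each). In Control the next were Mdm2 (19.8 ± 2.42), Bax (17.6 ± 11.7), Bcl2l1 (16.7 ± 0.446), Apaf1 (13.0 ± 2.51), Cdkn1a (12.8 ± 10.7) and Bcl2 (12.2 ± 1.69). Neighbours in this order overlapped in range, except that every Bcl2l1 value was above every Apaf1 value. Bcl2l11 (7.46 ± 2.68), Pmaip1 (6.21 ± 3.18) and Bbc3 (2.34 ± 1.96) were lowest, overlapping with each other in that order, and all Bcl2l11 values were below all Bcl2 values.

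In Model the order changed behind Mcl1. Cdkn1a, in place 6 in Control, was in place 2 with 63.4 ± 13.6 CPM per kb, and Bcl2l1 was the third with 58.0 ± 15.5, their ranges overlapping. Apaf1 followed with 33.0 ± 7.35, below every Bcl2l1 value, and Mdm2 with 30.7 ± 9.65, overlapping Apaf1. Bcl2l11 stood at 17.3 ± 3.51, Bax at 15.4 ± 4.16 and Pmaip1 at 13.3 ± 3.62, and each of these overlapped the one before it. Bcl2 was in place 9 with 8.30 ± 1.70, below every Pmaip1 value, and Bbc3 was again last with 0.0542 to 1.82. Per length, Bcl2l1 was above Bcl2 in both groups without overlap, by 16.2 to 17.1 against 11.03 to 14.1 CPM per kb in Control and by 44.2 to 74.7 against 7.21 to 10.3 in Model.

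**Figure D3:**
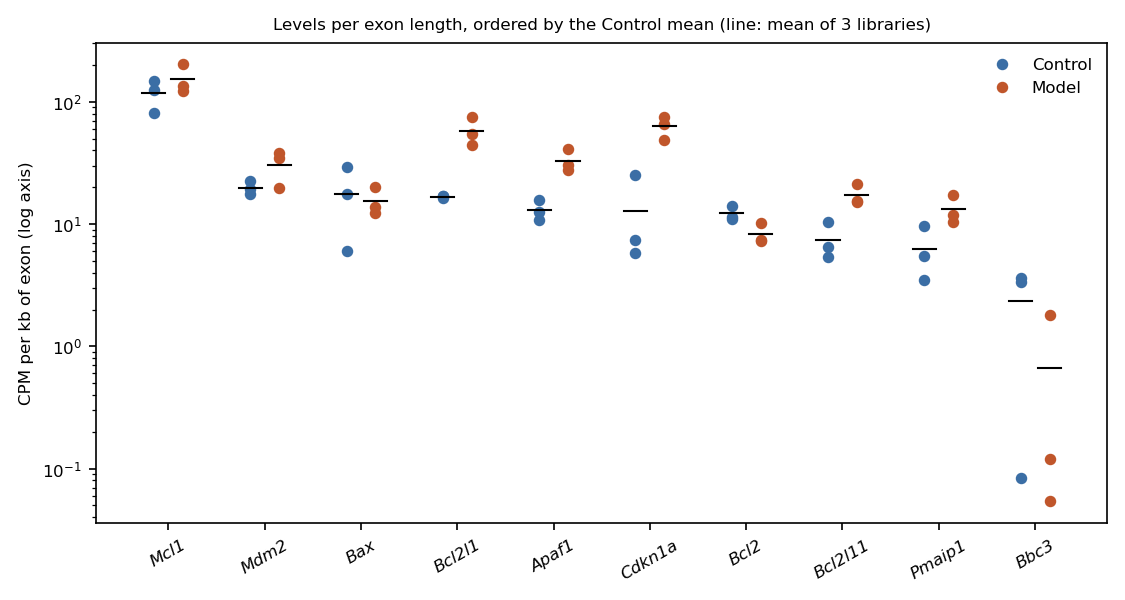
CPM per kb of exon for the 10 genes on a log axis, ordered by the Control mean. Points are libraries and lines are means of 3. Mcl1 leads in both groups, and Cdkn1a and Bcl2l1 lie next in Model.

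Ratios between pairs of genes within a library cancel the scaling of that library, apart from the prior count, which weighs on Bbc3 where it has 3 to 6 counts. They were computed for 4 pairs of a death-promoting or protecting gene and its partner, as differences of log2 CPM with a prior count of 2. With 3 libraries against 3, an exact permutation test cannot give a p under 0.1. The log2 ratio of Bcl2l11 to Mcl1 was -2.80, -2.90 and -3.26 in Control 1 to 3. In Model 1 to 3 it was -2.02, -2.23 and -2.11. The groups did not overlap, and the ratio was higher in Model by 0.87 (exact permutation p = 0.1, two-sided, the smallest possible, and 0.267 after Benjamini-Hochberg adjustment over the 4 pairs). The spread of this ratio within groups, an SD of 0.24 in Control and 0.11 in Model, was smaller than that of the other 3 ratios.

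The log2 ratio of Bax to Bcl2, a widely used index of readiness for apoptosis, ranged from -3.70 to -1.36 in Control and from -2.35 to -1.30 in Model. The groups overlapped, and the difference of 0.61 was smaller than the Control SD of 1.17 (exact permutation p = 0.4, two-sided, adjusted 0.4). That difference was 0.0152 without Control 2, 0.31 without Model 3 and 1.19 without Control 1. The log2 ratio of Mcl1 to Bcl2 was 1.82 ± 0.47 in Control and 2.77 ± 0.59 in Model (SD, n = 3 each, exact permutation p = 0.2, two-sided, adjusted 0.267), also with overlap. That of Bbc3 to Bcl2l1 ranged from -8.32 to -3.41 in Control and from -10.51 to -5.76 in Model (exact permutation p = 0.2, two-sided, adjusted 0.267). Control 1, with almost no Bbc3, lay among the Model values of that ratio.

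**Figure D4:**
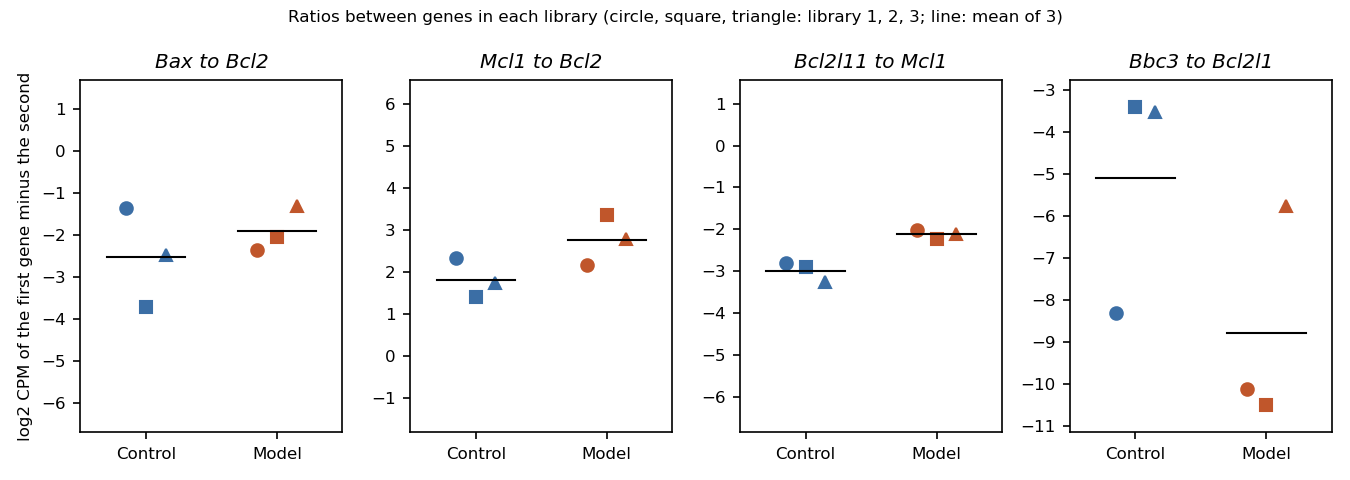
Log2 ratio of 4 gene pairs in each library, with equal spans on the vertical axes. Points are libraries and lines are means of 3. Only for Bcl2l11 to Mcl1 are all Model libraries above all Controls.

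Other genes of the same pathways were described from 4 lists. With 3 libraries a group, a gene that missed the threshold is not shown to be equal in both groups. Over all tested genes, 15.8% had an unadjusted p under 0.05, as above. In the rest of the BCL2 family, 0 of 8 tested genes passed the test in either direction, of 12 listed (0 at an unadjusted p under 0.05), and the median log2 fold change was 0.23. DESeq2 and limma-voom also called 0 of them. The lowest p belonged to Bad, a BH3-only gene at 3.06 ± 2.63 CPM in Control and 8.95 ± 6.82 in Model (adjusted p = 0.633 by edgeR), and Bok, a BAX relative at 6.11 ± 7.13 and 14.2 ± 2.97 CPM (adjusted p = 0.655 by edgeR). The Bcl2a1 genes are near-identical copies that can share reads. Bcl2a1a had 50, 108 and 235 counts in Control and 0, 0 and 108 in Model, while its copy Bcl2a1d had 185 to 724 counts in all 6 libraries.

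In the list of apoptosome, caspase, caspase inhibitor and related genes, 0 of 18 passed the test. Their median log2 fold change was 0.11, with 1 gene at an unadjusted p under 0.05. That gene was Dffb, the nuclease that cuts DNA in dying cells, at 26.6, 17.4 and 19.4 CPM in Control 1 to 3 and 1.05, 8.74 and 4.85 CPM in Model 1 to 3 (log2 fold change -2.11, SE 0.90, adjusted p = 0.273 by edgeR). Xiap, an inhibitor of caspases, was at 171 ± 26.0 and 231 ± 12.5 CPM (adjusted p = 0.384 by edgeR). Partners of APAF1 were named after their values were seen, for their role, and their groups overlapped. Cycs, cytochrome c, was at 98.1 ± 40.0 CPM in Control against 108 ± 46.5 CPM in Model, and Casp9 at 23.7 ± 10.3 against 18.3 ± 8.31 CPM. DESeq2 and limma-voom called 0 of the 18.

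Of p53 and its regulators, 0 of 9 tested genes passed the test, of 11 listed, with a median log2 fold change of -0.11 and 1 gene at an unadjusted p under 0.05. Trp53, the gene of p53 itself, also named for its role after its values were seen, was at 15.2, 13.1 and 13.3 CPM in Control 1 to 3 and at 11.2, 20.7 and 17.8 CPM in Model 1 to 3 (log2 fold change 0.25, SE 0.69, adjusted p = 0.921 by edgeR). Trp63, a p53 relative of epithelia, had the lowest p, with 79.9, 30.9 and 6.93 CPM in Model 1 to 3 against 1.08 to 11.5 CPM in Control (log2 fold change 2.62, SE 0.95, adjusted p = 0.181 by edgeR). Its groups overlapped, and DESeq2 called it (adjusted p = 0.0287). Atm, the kinase that signals DNA breaks to p53, was at 138 ± 12.3 and 101 ± 9.56 CPM (adjusted p = 0.413 by edgeR).

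Of 22 other p53 targets tested, of 23 listed, 3 rose and none fell, with a median log2 fold change of 0.32. Called shares over all tested genes were 2.71% higher and 1.36% lower, as above. Plk3, a stress-responsive polo-like kinase, was at 14.2, 12.4 and 9.51 CPM in Control 1 to 3 and 62.7, 98.6 and 53.3 CPM in Model 1 to 3 (log2 fold change 2.57, SE 0.44, adjusted p = 0.00533 by edgeR). Its call held under each of 14 alternatives. Sesn2, a sestrin also induced by amino acid and endoplasmic reticulum stress, was at 4.16, 5.48 and 7.89 CPM in Control 1 to 3 and 46.7, 44.7 and 28.7 CPM in Model 1 to 3 (log2 fold change 2.78, SE 0.59, adjusted p = 0.0196 by edgeR). Plk2, a polo-like kinase also known as an immediate early gene, was at 49.6, 44.7 and 88.6 CPM in Control 1 to 3 and 331, 141 and 126 CPM in Model 1 to 3 (log2 fold change 1.71, SE 0.40, adjusted p = 0.0316 by edgeR).

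These 3 genes did not overlap between the groups. In the annotation Plk3 shares its locus with Tctex1d4 on the opposite strand, and Sesn2 with Gm12981. The call of Sesn2 was lost without Control 2 (adjusted p = 0.0691), Model 1 (0.0781) or Model 2 (0.0991), without Control 1 and Model 2 together (0.111) and with limma-voom (0.0673). That of Plk2 was lost without Control 1 (0.142), Control 2 (0.0900) or Model 1 (0.156) and without Control 1 and Model 2 together (0.143). The list count was then 1 without Control 2 and 1 without Model 1. Of the 22 targets, 13 had a log2 fold change above 0 and 9 below. An unadjusted p under 0.05 was found for 7 of them, against 15.8% of all tested genes. The groups did not overlap for 6 that were higher and 2 that were lower in Model, against 12.1% and 11.4% of all tested genes. The targets named next fall outside the naming rule and were picked with their values known. Trp53inp1, a p53-induced stress protein, was at 203 ± 46.1 CPM in Control and 390 ± 74.7 in Model (adjusted p = 0.0645 by edgeR), and Ccng1, the cyclin G1 gene, at 92.9 ± 20.1 and 92.6 ± 7.53 CPM (adjusted p = 0.999 by edgeR). On the lower side, Phlda3, a p53-induced inhibitor of AKT, was at 41.0, 53.05 and 49.0 CPM in Control 1 to 3 and 25.05, 14.7 and 31.7 CPM in Model 1 to 3 (log2 fold change -1.001, SE 0.44, adjusted p = 0.293 by edgeR), with no overlap. The lowest value of the list was -2.37 for Pidd1, a death domain protein (SE 1.06, adjusted p = 0.298 by edgeR), whose groups overlapped.

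**Figure D5:**
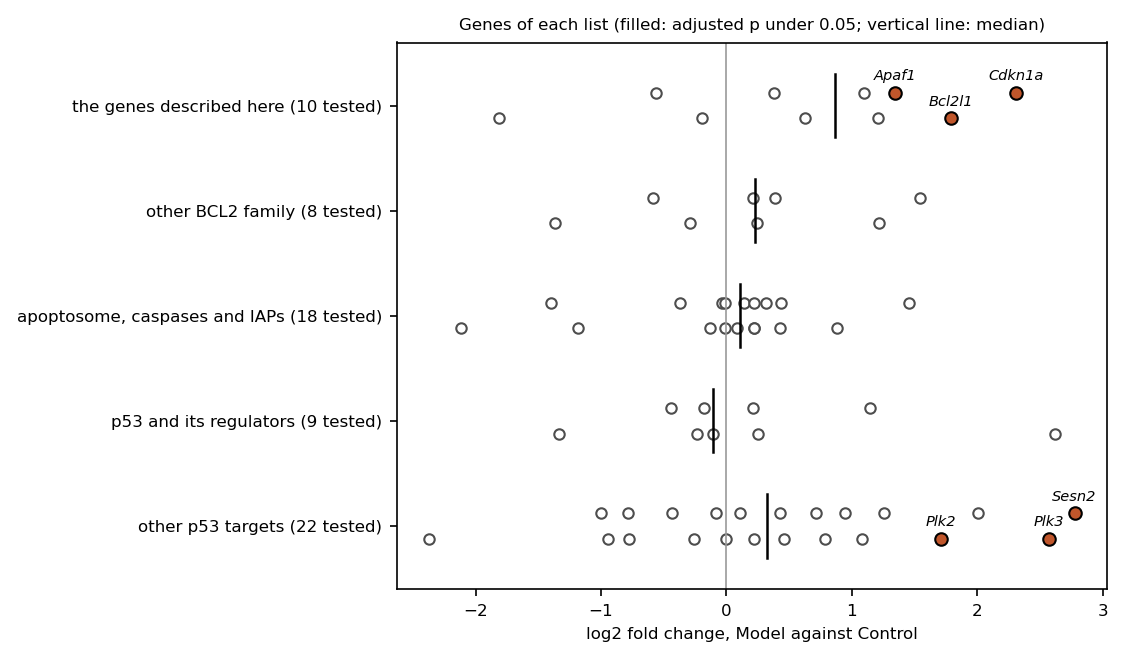
Log2 fold change of each tested gene of the 10 described and of 4 lists of related genes, with filled points for an adjusted p under 0.05 and a line at each median. Bcl2l1, Apaf1 and Cdkn1a passed the test among the 10, Sesn2, Plk3 and Plk2 among the other p53 targets, and none in the other 3 lists.

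For each gene that rose, the tested genes of at least 8 CPM on average with the most similar profile were found, by the root-mean-square difference of centred log2 CPM over the 6 libraries. Closest to Bcl2l1 among 10687 genes were Pttg1ip (0.15), Adamts9 (0.16) and Dedd2 (0.17), against a median of 1.06 over all genes ranked. Dedd2, a death effector domain protein, ranged from 13.7 to 16.7 CPM over the Controls and from 31.2 to 56.4 CPM over the Model libraries. Closest to Apaf1 were Cd101 (0.07), Pgs1 (0.13) and Bhlhe40 (0.14), and closest to Cdkn1a were Slc2a1 (0.33), Trpc6 (0.35) and Kcnj2 (0.44). Slc2a1, the glucose transporter GLUT1, ranged from 28.9 to 79.4 CPM over the Controls, highest in Control 1 as for Cdkn1a, and from 126 to 298 CPM over the Model libraries.

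Profiles of Bcl2l1 and Apaf1 were near each other, with a difference of 0.28 that placed Apaf1 at rank 36 for Bcl2l1 and Bcl2l1 at rank 82 for Apaf1. Both were highest in Model 1 and lowest, among Model libraries, in Model 3. Cdkn1a differed more from both, by 0.85 and 0.86, and was highest in Model 3. It was at rank 2914 for Bcl2l1 and 5007 for Apaf1. Ranked for Cdkn1a, whose median difference from all genes was larger (1.57), Bcl2l1 was at rank 128 and Apaf1 at rank 135.

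Transcripts of blood cells moved between the groups along with these genes. All 8 tested neutrophil markers, of 10 listed, were called higher, with a summed level of 29.3 to 112 CPM in Control and 2166 to 6418 CPM in Model, and Ly6g, not tested, had 0 counts in each Control and 1, 337 and 147 in Model 1 to 3. All 8 platelet markers were called higher, with the sums given above. Of 6 tested erythroid markers 5 were called higher, from 323 to 446 CPM in Control to 4894 to 28683 CPM in Model. Of 9 rows of B cell markers 4 were lower, from 902 to 1548 to between 300.0 and 588 CPM, and of 8 T and NK cell markers 5 were lower, from 455 to 1224 to between 139 and 236 CPM. The part of these cell types in the values of Bcl2l1, Bcl2, Mcl1 and the other genes was not tested.

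Within Model the platelet sum was 1162, 972 and 450 CPM in libraries 1 to 3, the same order as for Bcl2l1 and Apaf1. The B cell sum (588, 433 and 300.0 CPM) and the dividing cell sum (148, 126 and 105 CPM) had this order as well. The erythroid sum, 15335, 28683 and 4894 CPM, was in another order, highest in Model 2. The neutrophil sum of 6418 CPM in Model 2 stood above 2166 and 2186 CPM in Model 1 and Model 3, and Mcl1 and Bcl2l11 were also highest in Model 2. Among the Controls the platelet sum was 155, 59.8 and 78.6 CPM in libraries 1 to 3. Apaf1 had that order too, while Bcl2l1 was lowest in Control 1. So did the sums of B cell (1548, 902 and 1130 CPM) and T and NK cell markers (1224, 455 and 648 CPM) have the order of Apaf1. Endothelial (2155, 1825 and 1840 CPM) and dividing cell markers (527, 128 and 206 CPM) had it as well. The source of these shared orders was not tested. The neutrophil sum was 29.3, 54.9 and 112 CPM in Control 1 to 3. It was thus lowest in Control 1, where Mcl1 and Bcl2l11 were the highest of the Controls. In Control 1 the markers of dividing cells summed to 527 CPM, against 128 and 206 CPM in the other Controls and 105 to 148 CPM in Model, with 0 of 5 called. Of 7 tested macrophage markers 1 was higher and none lower, with sums of 299 to 614 CPM and 317 to 491 CPM, although the defining gene Csf1r had 0 to 2 counts in 5 of 6 libraries. Endothelial sums were 1825 to 2155 and 1805 to 2695 CPM (1 of 8 higher), smooth muscle sums 2873 to 4516 and 1077 to 2594 CPM (0 of 7 called), fibroblast sums 2289 to 3992 and 1972 to 2267 CPM (0 of 7) and adipocyte sums 4570 to 5652 and 4190 to 7249 CPM (0 of 6). Hepatocyte markers (0 of 6 called) summed to 4932 CPM in Model 2, 602 CPM in Control 1 and 32.4 to 170 CPM in the other 4 libraries.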

How the data were processed

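RNA of 6 mouse samples was sequenced after removal of ribosomal RNA, with a low-input kit on a NovaSeq 6000, and reads were trimmed with cutadapt 1.9.3, per the labels' protocols. STAR 2.5.1b, edgeR 3.16.5 and mm10 are named in the submitters' processing notes; how reads were counted, with which annotation and strand setting, is not given in the sources used here. The authors deposited whole-number counts for each gene, taken here unchanged, and 6 per-sample columns of normalized values that were not used.

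Counts were fitted in R 4.3.3 with edgeR 4.0.16: filterByExpr with a minimum count of 10, TMM scaling, quasi-likelihood test, two-sided, Benjamini-Hochberg adjustment over 13907 genes, threshold 0.05. The SE is the log2 fold change divided by the root of its F. Levels are CPM after TMM scaling. A count of 0 allows up to 3 counts, covering counting error only. The test was tested on simulated data. Positions, exon lengths and overlaps come from GENCODE M21 (GRCm38). No 2 libraries were duplicates.

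Genes and lists were chosen with earlier results of these data known. Named genes were the 10 genes, list members past the test (otherwise the 2 with the lowest p), and the 3 nearest profiles. Alternatives were each library left out, Control 1 and Model 2 left out together, a replicate block, scaling by RLE or upper quartile, no filter, a minimum count of 100, DESeq2 1.42.0 and limma-voom (limma 3.58.1). List names Tigar, Pidd1 and Adgre1 were matched by identifier.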

Additional observations from a re-analysis of the deposited data

How the results depend on the processing

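The count of the 10 genes called higher was 3, and from 1 (without Model 1) to 4 with 1 library left out, and the count called lower was 0 in every one of 14 alternatives. The counts of the rest of the BCL2 family and of the apoptosome list were 0 in all 14. The count for p53 and its regulators was 1 with no filter and 1 with DESeq2, Trp63 in both. That of other p53 targets was 5 with no filter, 5 with DESeq2, 1 without Control 1 and Model 2 together, and 1 to 3 with 1 library left out. With limma-voom that count was 3, with Sesn2 lost and Trp53inp1 gained (adjusted p = 0.0448). Over all genes, 377 higher and 189 lower calls became 642 and 469 with no filter, 639 and 578 with DESeq2, 222 and 63 without Control 1 and Model 2 together, and 221 to 312 and 92 to 136 with 1 library left out. Limma-voom called 115 lower genes. The sign of Bax was positive without Control 1 and Model 2 together (0.53), with the replicate block (0.0499) and with limma-voom (0.11), and ranged from -0.61 to 0.37 with 1 library left out. Cycs was at -0.0129 without Control 1 and Model 2 together and from -0.27 to 0.37 with 1 library left out. Ccng1 was at 0.0158 with the replicate block, 0.00783 with limma-voom and -0.18 to 0.13 with 1 library left out. The cause of these changes was not tested.

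The labels do not say whether same-numbered libraries were paired. Their deviations from the group means correlated at 0.147, 0.119 and 0.00367 for numbers 1 to 3. Between different numbers the correlation ranged from -0.159 (Control 2 with Model 1) to 0.0733 (Control 3 with Model 2). These values do not settle whether there was a pairing. The replicate block gave 379 higher and 196 lower genes, left 3 of the 10 genes called, and changed no list count. With 1 library left out, the difference in log2 ratio ranged from 0.0152 to 1.19 for Bax to Bcl2, 0.66 to 1.25 for Mcl1 to Bcl2, 0.73 to 0.96 for Bcl2l11 to Mcl1 and -5.33 to -2.86 for Bbc3 to Bcl2l1.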
